A study of Mus musculus with 8 samples.

Results

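A set of genes of the neuromuscular junction and of the response to denervation were followed in the gastrocnemius muscle of aged muscle-specific NOX4-deficient mice, and they were taken by symbol from the deposited count table, where they make up 10 of 32390 rows. They are the 5 subunits of the muscle acetylcholine receptor (*Chrna1*, *Chrnb1*, *Chrnd*, *Chrne* and *Chrng*), the receptor kinase *Musk*, the transcription factors *Myog* and *Runx1*, the adhesion molecule *Ncam1* and the stress-responsive gene *Gadd45a*. Bulk poly(A) RNA-seq was performed on 4 Nox4 fl/fl (control) and 4 MckCre:Nox4 fl/fl (KO, here NOX4-deficient) male mice of 21 months on standard chow. Both groups carry the floxed *Nox4* allele on both chromosomes, and only the NOX4-deficient mice carry Cre, which the *Mck* promoter drives mainly in skeletal muscle and less in the heart, so that gastrocnemius cells other than muscle fibers would keep *Nox4*. All 8 samples belong to 1 batch in the labels, and each is a separate mouse in the count table.

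At the neuromuscular junction, acetylcholine released by the motor nerve opens a pentameric receptor in the fiber membrane. Agrin from the nerve binds LRP4, which activates MuSK together with DOK7, and rapsyn then clusters the receptors under the nerve ending. In developing or denervated fibers the receptor carries the gamma subunit, which the epsilon subunit replaces in innervated adult fibers. When the nerve is lost, myogenin is known to switch on receptor and *Musk* genes along the whole fiber, and *Ncam1*, *Runx1* and *Gadd45a* are classical genes of the denervated state.

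The libraries held between 16350548 and 19804661 counts on genes. Levels are given as CPM, that is counts scaled to library size, adjusted between libraries by edgeR's TMM method. A gene was called when edgeR's quasi-likelihood test gave a Benjamini-Hochberg adjusted p below 0.05 and an absolute log2 fold change over 0.5, and fold changes are NOX4-deficient over control. Of 12725 rows tested, 784 were called in either direction, which is 6.16%, with 3.48% lower and 2.68% higher in NOX4-deficient muscle. The replicates numbered 1 and 3 of both genotypes lay apart from those numbered 2 and 4 on the second principal component, which held 19.0% of the variance. *Nox4* itself averaged 3.27 ± 1.42 CPM in control mice and 2.07 ± 0.220 in NOX4-deficient mice (SD, n = 4), and its log2 fold change of -0.65 did not pass the test (edgeR adjusted p = 0.207), so the deletion was not evident from the counts over the whole gene. With single libraries left out the log2 fold change of *Nox4* ran from -0.82 to -0.36. Muscle fiber markers made up most of the marker signal, with a summed level of 149558 to 188056 CPM in control and 158195 to 191489 CPM in NOX4-deficient muscle.

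None of the 9 members tested was called, beside 6.16% of all rows. At an unadjusted p below 0.05 in edgeR's test, which 23.2% of all rows reached, stood 5 of the 9: *Musk*, *Myog*, *Gadd45a* and *Runx1* with lower means and *Chrne* with a higher mean in NOX4-deficient muscle. The other 4 (*Chrna1*, *Chrnb1*, *Chrnd* and *Ncam1*) had log2 fold changes between 0.04 and 0.27. The median log2 fold change over the 9 was 0.04, beside 0.01 over all rows tested, so the list had no common direction. The same thresholds in DESeq2 called 3 members in R (*Musk*, *Myog* and *Gadd45a*, all lower) where that tool called 7.90% of its rows, and pydeseq2 called these 3 beside 7.50%. An edgeR fit that was not robust to outlying dispersions called *Musk* and *Gadd45a*, beside 6.12% of rows. For 1 of the 9, *Musk*, the 2 genotypes did not overlap, as was so for 16.2% of all rows. The p-values set the difference between genotypes against the spread between mice, which edgeR estimates with information from all rows. In bulk tissue fewer cells of a type and less RNA per cell cannot be told apart.

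**Figure D1:**
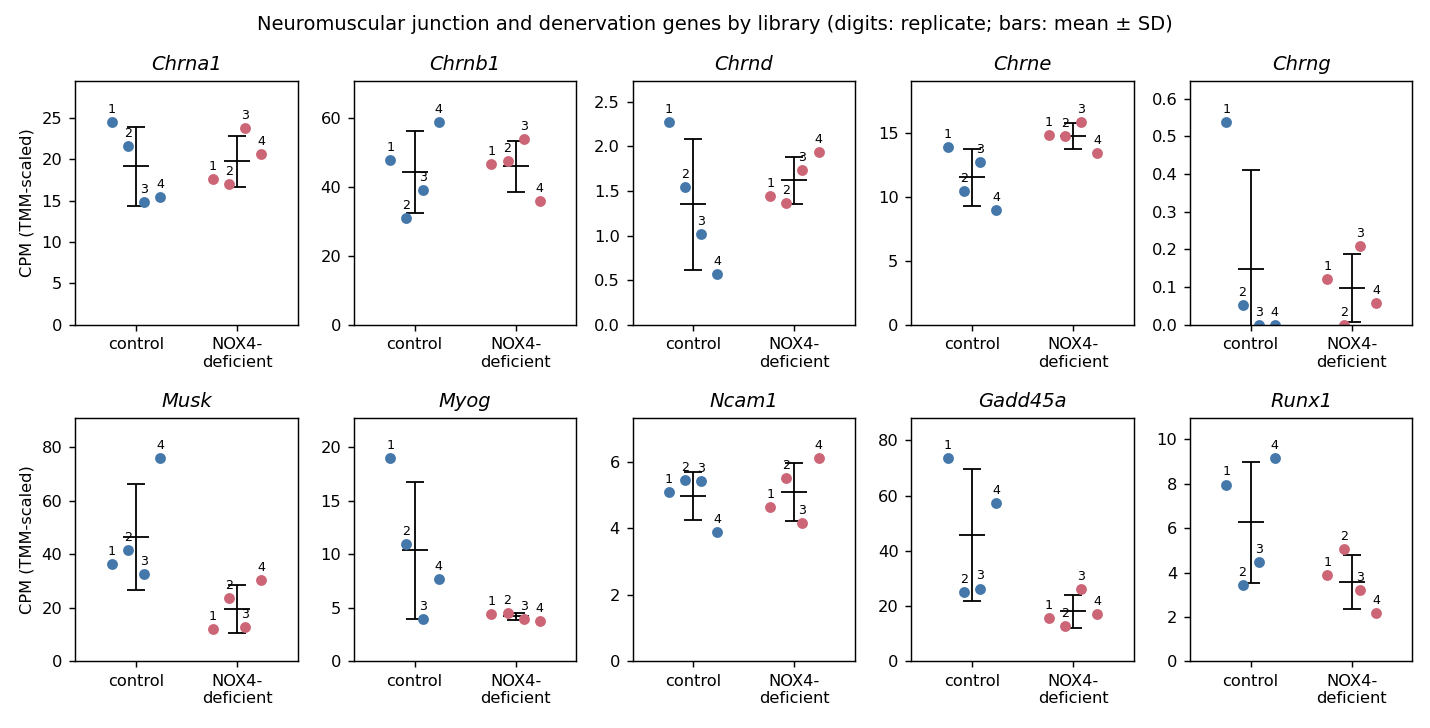
CPM of each of the 10 genes in each library (y axes, linear from 0; 4 control and 4 NOX4-deficient mice; lines are means and bars are SD, drawn from 0 where they would reach below it). All 4 NOX4-deficient values of Musk lay below all 4 control values, Myog spread widely in control and narrowly in NOX4-deficient muscle, and the subunits Chrna1, Chrnb1 and Chrnd overlapped.

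*Musk*, which encodes the kinase that organizes the postsynaptic membrane, measured 36.2, 41.4, 32.7 and 75.8 CPM in control replicates 1 to 4 and 12.0, 23.7, 12.7 and 30.4 CPM in NOX4-deficient replicates 1 to 4. Every NOX4-deficient mouse was below every control mouse, and control replicate 4 was well above the other controls. The means were 46.5 ± 19.8 and 19.7 ± 8.90 CPM (SD, n = 4 each), a log2 fold change of -1.24 (SE 0.36, 95% interval -2.06 to -0.42, edgeR adjusted p = 0.073). The CPM values were also compared by exact permutation, two-sided, which gave p = 0.0286, the lowest value possible for 4 mice against 4. Within each genotype the replicates numbered 1 and 3 were lower than those numbered 2 and 4, and the NOX4-deficient values were lower in both pairs of numbers. *Musk* was called without NOX4-deficient replicate 4, the highest of its group (log2 fold change -1.51, edgeR adjusted p = 0.0396), and over the 8 fits that each left out 1 library its log2 fold change ran from -1.51 to -0.90.

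*Myog* encodes myogenin, the basic helix-loop-helix factor through which denervation is known to act on receptor genes. Its level was 18.9, 10.9, 3.96 and 7.69 CPM in control replicates 1 to 4 and 4.45, 4.50, 3.99 and 3.81 CPM in NOX4-deficient replicates 1 to 4. The control mice spanned 4.78-fold from lowest to highest and the NOX4-deficient mice 1.18-fold, and control replicate 3 lay within the NOX4-deficient range. The means were 10.4 ± 6.38 and 4.19 ± 0.340 CPM (SD, n = 4 each), and the log2 fold change was -1.30 (SE 0.39, 95% interval -2.16 to -0.45, edgeR adjusted p = 0.069). The exact two-sided permutation test gave p = 0.114. Without control replicate 3 *Myog* was called (log2 fold change -1.56, edgeR adjusted p = 0.00865), and without control replicate 1, the highest, the log2 fold change was -0.85.

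*Gadd45a* is a growth arrest gene of denervated muscle that ATF4 induces in immobilized muscle. Its level was 73.5, 25.3, 26.4 and 57.5 CPM in control replicates 1 to 4 and 15.8, 12.9, 26.3 and 17.3 CPM in NOX4-deficient replicates 1 to 4. Control replicates 1 and 4 were high, and NOX4-deficient replicate 3 came between the lower control mice. The means of 45.6 ± 23.8 and 18.1 ± 5.80 CPM (SD, n = 4 each) gave a log2 fold change of -1.33 (SE 0.38, 95% interval -2.20 to -0.47, edgeR adjusted p = 0.070), and the exact two-sided permutation test gave p = 0.0571. It was called without control replicate 2 (edgeR adjusted p = 0.0355) or without control replicate 3 (edgeR adjusted p = 0.0435). In the GRCm38 annotation 337 of the 1764 exon bases of *Gadd45a* overlap E230016M11Rik on the other strand, and the libraries are unstranded; that neighbor received 30 counts over all 8 libraries, where *Gadd45a* received 4628.

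*Runx1*, a transcription factor that denervated fibers induce and that leukocytes also express, was at 7.97, 3.45, 4.49 and 9.15 CPM in control replicates 1 to 4 and at 3.91, 5.06, 3.21 and 2.17 CPM in NOX4-deficient replicates 1 to 4. As for *Gadd45a*, control replicates 1 and 4 were the high ones, and the groups overlapped. The log2 fold change was -0.80 (SE 0.33, edgeR adjusted p = 0.171; exact two-sided permutation p = 0.171). Of the leukocyte markers tested, 8 of 9 had negative log2 fold changes, with a median of -0.47 and none called, and none was at 0. The summed leukocyte level was 30.8 to 75.9 CPM in control and 18.8 to 41.0 CPM in NOX4-deficient muscle, and its part in the *Runx1* values was not tested.

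The genes *Musk*, *Myog* and *Gadd45a* had log2 fold changes of like size. The 200 bases before their start sites are given here with those of *Chrna1* and *Chrne*, receptor genes without a lower mean, because E-boxes and N-boxes are the classical elements of junction genes: E-boxes bind myogenin and its relatives, and N-boxes bind ETS factors such as GABP. The sequences are from RefSeq on GRCm38.p6, 5′ to 3′ on the gene's strand, and capitals mark each E-box (CANNTG, the same on both strands) and each N-box (CCGGAA, searched on both strands); these motifs cannot overlap each other.
Musk, chr4:58285762-58285961, + strand: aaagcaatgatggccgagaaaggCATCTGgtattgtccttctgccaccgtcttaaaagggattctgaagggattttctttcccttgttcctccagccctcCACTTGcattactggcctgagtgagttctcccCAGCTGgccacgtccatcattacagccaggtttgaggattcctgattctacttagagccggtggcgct
Myog, chr1:134289804-134290003, + strand: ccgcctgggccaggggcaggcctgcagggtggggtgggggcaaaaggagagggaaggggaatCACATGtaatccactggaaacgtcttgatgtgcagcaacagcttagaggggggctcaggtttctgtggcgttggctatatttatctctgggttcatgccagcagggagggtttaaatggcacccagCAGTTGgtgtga
Gadd45a, chr6:67037408-67037607, - strand: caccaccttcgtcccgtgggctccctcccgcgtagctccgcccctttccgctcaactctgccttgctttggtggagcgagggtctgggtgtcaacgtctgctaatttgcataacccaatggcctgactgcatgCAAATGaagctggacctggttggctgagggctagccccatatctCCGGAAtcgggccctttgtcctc
Chrna1, chr2:73580339-73580538, - strand: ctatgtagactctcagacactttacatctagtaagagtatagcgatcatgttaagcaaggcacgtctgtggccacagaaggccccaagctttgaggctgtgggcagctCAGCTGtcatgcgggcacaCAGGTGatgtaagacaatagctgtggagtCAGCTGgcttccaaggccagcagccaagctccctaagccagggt
Chrne, chr11:70619195-70619394, - strand: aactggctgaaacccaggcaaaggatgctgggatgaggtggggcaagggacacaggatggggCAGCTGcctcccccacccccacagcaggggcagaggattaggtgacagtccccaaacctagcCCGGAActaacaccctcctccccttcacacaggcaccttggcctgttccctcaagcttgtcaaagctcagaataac
Of the 10 members 8 had an entry, with 9 windows in all because *Runx1* has a pair of starts, and *Chrnd* and *Ncam1* had none. An E-box stood in 8 of the 9 windows and in 58.2% of all 32851 windows of this length, and 3 or more stood in 5 of the 9 (*Chrna1*, *Chrnb1*, *Chrng*, *Musk* and a *Runx1* window) and in 7.49% of all windows. An N-box stood in 3 of the 9 windows (*Chrne*, *Gadd45a* and a *Runx1* window) and in 10.7% of all windows. *Musk* and *Chrna1* had 3 E-boxes each, *Myog* had 2, and *Gadd45a* and *Chrne* had 1 each. A match of these letters is a description and not a bound site.

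The alpha subunit gene *Chrna1*, whose product forms the acetylcholine binding sites, was at 24.6, 21.7, 14.9 and 15.5 CPM in control and 17.7, 17.0, 23.8 and 20.6 CPM in NOX4-deficient replicates 1 to 4. All NOX4-deficient mice lay inside the control range, and the log2 fold change was 0.05 (SE 0.17, 95% interval -0.33 to 0.43, edgeR adjusted p = 0.906). *Chrnb1*, the beta subunit, was at 47.8, 31.1, 39.3 and 59.0 CPM in control and 46.6, 47.6, 54.0 and 36.0 CPM in NOX4-deficient replicates 1 to 4, with a log2 fold change of 0.06 (95% interval -0.34 to 0.45, edgeR adjusted p = 0.892). The NOX4-deficient mice lay inside the control range. *Chrnd*, the delta subunit, was low throughout, at 2.28, 1.54, 1.02 and 0.572 CPM in control and 1.44, 1.37, 1.73 and 1.93 CPM in NOX4-deficient muscle, and its interval was wide (log2 fold change 0.27, 95% interval -0.52 to 1.06, edgeR adjusted p = 0.709). The signs of *Chrna1* and *Chrnb1* turned when single libraries were left out, and the log2 fold change of *Chrnd* then ran from 0.01 to 0.63.

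*Chrne*, the epsilon subunit of the adult receptor, was at 13.9, 10.4, 12.7 and 8.99 CPM in control and 14.9, 14.8, 15.9 and 13.4 CPM in NOX4-deficient replicates 1 to 4. In 3 of the 4 NOX4-deficient mice it lay above the highest control. The means were 11.5 ± 2.21 and 14.7 ± 1.00 CPM (SD, n = 4 each) and the log2 fold change was 0.36 (SE 0.15, 95% interval 0.04 to 0.67, edgeR adjusted p = 0.166; exact two-sided permutation p = 0.0571).

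*Chrng*, the gamma subunit of the fetal and denervated receptor, was covered by 9, 1, 0 and 0 counts in control and by 2, 0, 4 and 1 in NOX4-deficient replicates 1 to 4. With 10 counts against 7 it was too low to be tested, and 9 of its 10 control counts came from replicate 1. Its share of the *Chrng* plus *Chrne* counts was 3.73% in control replicate 1 (Clopper-Pearson 95% interval 1.72 to 6.97%), and 0.490% in control replicate 2. Control replicates 3 and 4 had no *Chrng* count, which allows a share of up to 1.26% and 1.73% when the limit is set at 3 counts, and of up to 1.54% and 2.11% by the Clopper-Pearson interval. In NOX4-deficient muscle the share was highest in replicate 3, at 1.31% (95% interval 0.357 to 3.31%), at 0.803% and 0.435% in replicates 1 and 4, and 0 in replicate 2, which allows up to 1.03% by the limit of 3 counts and 1.26% by the Clopper-Pearson interval. These intervals and limits cover counting error only. The shares are of counts and are not scaled to exon length, which was 4163 bases for *Chrng* and 1690 for *Chrne*, so per length the *Chrng* part is smaller. The epsilon form made up nearly all of this pair in each of the 8 libraries.

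Levels of different genes were compared per length, as CPM per kilobase of annotated exon. In control muscle the order was *Gadd45a* (25.9 ± 13.5), *Chrnb1* (17.5 ± 4.71), *Musk* (12.3 ± 5.24), *Myog* (6.94 ± 4.26), *Chrne* (6.82 ± 1.31) and *Chrna1* (4.37 ± 1.08), followed by *Ncam1*, *Runx1*, *Chrnd* and *Chrng*, all below 1 (SD, n = 4). Among neighbors in that order the ranges over mice separated *Chrna1* from *Ncam1* and *Chrnd* from *Chrng*, and all other neighbors overlapped. In NOX4-deficient muscle *Chrnb1* came before *Gadd45a* (18.2 ± 2.94 and 10.2 ± 3.29), *Chrne* (8.72 ± 0.594) before *Musk* (5.21 ± 2.36), and *Chrna1* (4.51 ± 0.702) before *Myog* (2.80 ± 0.227). There the ranges separated *Chrna1* from *Myog*, *Myog* from *Ncam1* and *Runx1* from *Chrng*, and the other neighbors overlapped. With the longest transcript as length *Myog* and *Chrne* changed places in control muscle, as did *Ncam1* and *Runx1*, and in NOX4-deficient muscle *Runx1* came before *Chrnd*. The control mean of *Runx1* moved from 0.521 to 1.07 by that length, so its place below 1 depends on the length used.

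**Figure D2:**
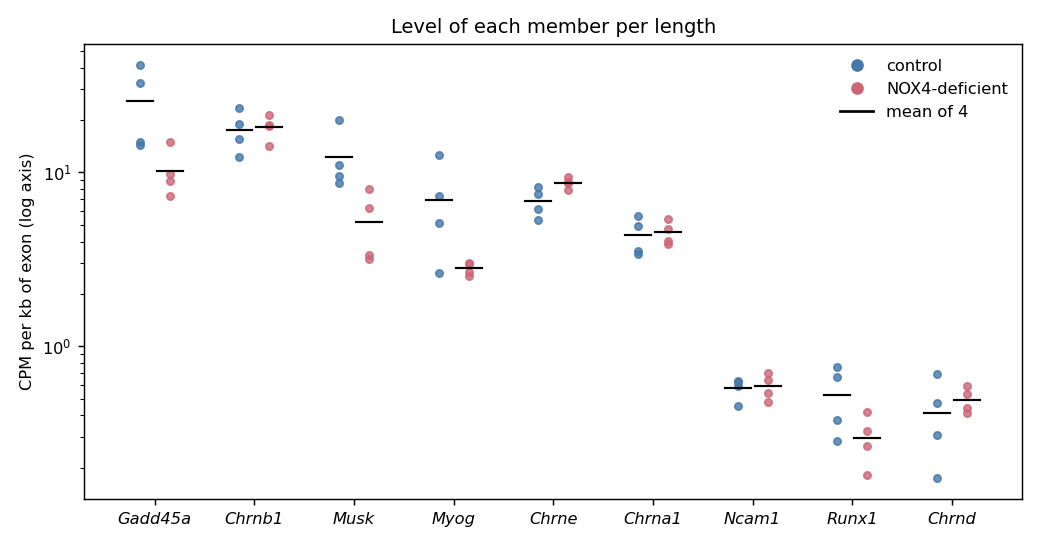
CPM per kilobase of exon (log axis) of 9 members in the 4 control and the 4 NOX4-deficient mice, with black lines for the means; Chrng, with counts of 0 in 3 libraries, is left out. Gadd45a, Musk, Myog and Runx1 have lower means in NOX4-deficient muscle, and Ncam1, Runx1 and Chrnd lie below 1 in every mouse.

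Within the summed level per length of the 5 receptor subunits, *Chrnb1* made up 59.5 ± 8.86% in control and 56.7 ± 3.35% in NOX4-deficient muscle, and *Chrne* 23.8 ± 5.09% and 27.4 ± 1.38%. *Chrna1* contributed 15.2 ± 4.35% and 14.2 ± 2.24% and *Chrnd* 1.43 ± 0.721% and 1.57 ± 0.387% (SD, n = 4). The summed receptor level was 29.1 ± 4.57 CPM per kilobase in control and 31.9 ± 3.78 in NOX4-deficient muscle. These differences were smaller than the SD over control mice and were not tested.

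*Ncam1*, an adhesion molecule of denervated fibers that Schwann cells and satellite cells also express, was at 5.09, 5.45, 5.40 and 3.90 CPM in control and 4.63, 5.51, 4.15 and 6.10 CPM in NOX4-deficient replicates 1 to 4. The groups overlapped (log2 fold change 0.04, 95% interval -0.36 to 0.44, edgeR adjusted p = 0.930), and the sign turned when control replicate 4 or NOX4-deficient replicate 2 or 4 was left out. Schwann cell and nerve markers summed to 91.6 to 122 CPM in control and 94.9 to 220 CPM in NOX4-deficient muscle, with 9 of 11 log2 fold changes positive, a median of 0.50 and none called. Satellite cell markers summed to 53.8 to 69.9 and 51.4 to 72.3 CPM, with 3 of 7 positive, a median of -0.05 and none called. Neither list had a gene at 0, and their part in the *Ncam1* values was not tested.

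Of 37 other junction genes, 29 were tested and 3 were called, beside 6.16% of all rows, with 14 negative and 15 positive log2 fold changes and a median of 0.05. *Dok7*, the cytoplasmic activator of MuSK, fell, from 21.2, 19.0, 18.1 and 15.3 CPM in control to 9.02, 10.7, 14.2 and 13.1 CPM in NOX4-deficient replicates 1 to 4, without overlap (log2 fold change -0.64, SE 0.16, edgeR adjusted p = 0.0288). *Lrp4*, the agrin receptor that pairs with MuSK, rose, from 4.26, 8.29, 6.31 and 4.58 CPM to 8.66, 11.6, 9.25 and 12.3 CPM, also without overlap (log2 fold change 0.83, SE 0.21, edgeR adjusted p = 0.0343). *Chrna2*, a subunit of neuronal acetylcholine receptors, fell from 4.49, 3.76, 1.02 and 2.34 CPM to 0.963, 0.708, 0.683 and 1.35 CPM (log2 fold change -1.65, SE 0.42, edgeR adjusted p = 0.0343). The kinase *Musk* and its activator *Dok7* had lower means and its coreceptor *Lrp4* a higher mean in the same muscles. Each of these calls was lost without some single library: *Dok7* without control replicate 1, 2 or 3 or NOX4-deficient replicate 1 or 2 (edgeR adjusted p up to 0.0743), *Lrp4* without control replicate 1, 3 or 4 or NOX4-deficient replicate 2, 3 or 4 (up to 0.0954), and *Chrna2* without control replicate 1, 2 or 4 or NOX4-deficient replicate 1, 2 or 3 (up to 0.0943).

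An unadjusted p below 0.05 in edgeR's test was reached by 11 of the 29 junction genes tested, beside 23.2% of all rows. The groups did not overlap in 7 of the 29, beside 16.2% of all rows. Of the 11, 8 were not called, 6 with positive and 2 with negative log2 fold changes, and these 8 are named here after their values were seen. *Dtna*, a dystrobrevin of the postsynaptic scaffold, and *Nes*, an intermediate filament protein enriched beneath the junction, passed the adjusted p without the minimum fold change (log2 fold changes 0.47 and 0.43, edgeR adjusted p = 0.0217 and 0.0264), and with single libraries left out these values were at most 0.0609 and 0.0795. The esterase gene *Ache* was at 27.6, 18.9, 28.4 and 12.7 CPM in control and 30.0, 31.3, 47.5 and 32.0 CPM in NOX4-deficient replicates 1 to 4 without overlap (log2 fold change 0.69, edgeR adjusted p = 0.117). It was called under 3 of the 16 alternatives, none of which left out a single library. Log2 fold changes were 0.32 for *Lamb2*, a laminin of the synaptic basal lamina, 0.46 for *Agrn* and 0.47 for *Colq*, the collagen tail of the esterase (edgeR adjusted p = 0.0640, 0.131 and 0.138). The lower pair were *Prkar1a*, a regulatory subunit of protein kinase A, with a log2 fold change of -0.28 and no overlap, and *Crk*, an adaptor that binds DOK7, with -0.35 (edgeR adjusted p = 0.0847 and 0.125). The scaffold *Rapsn*, outside these 8, had a log2 fold change of 0.23 (edgeR adjusted p = 0.384), which ran from 0.12 to 0.34 with single libraries left out. Of the 8 junction genes that were too low to be tested, *Nrg1* and *Chrnb4* had no count.

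**Figure D3:**
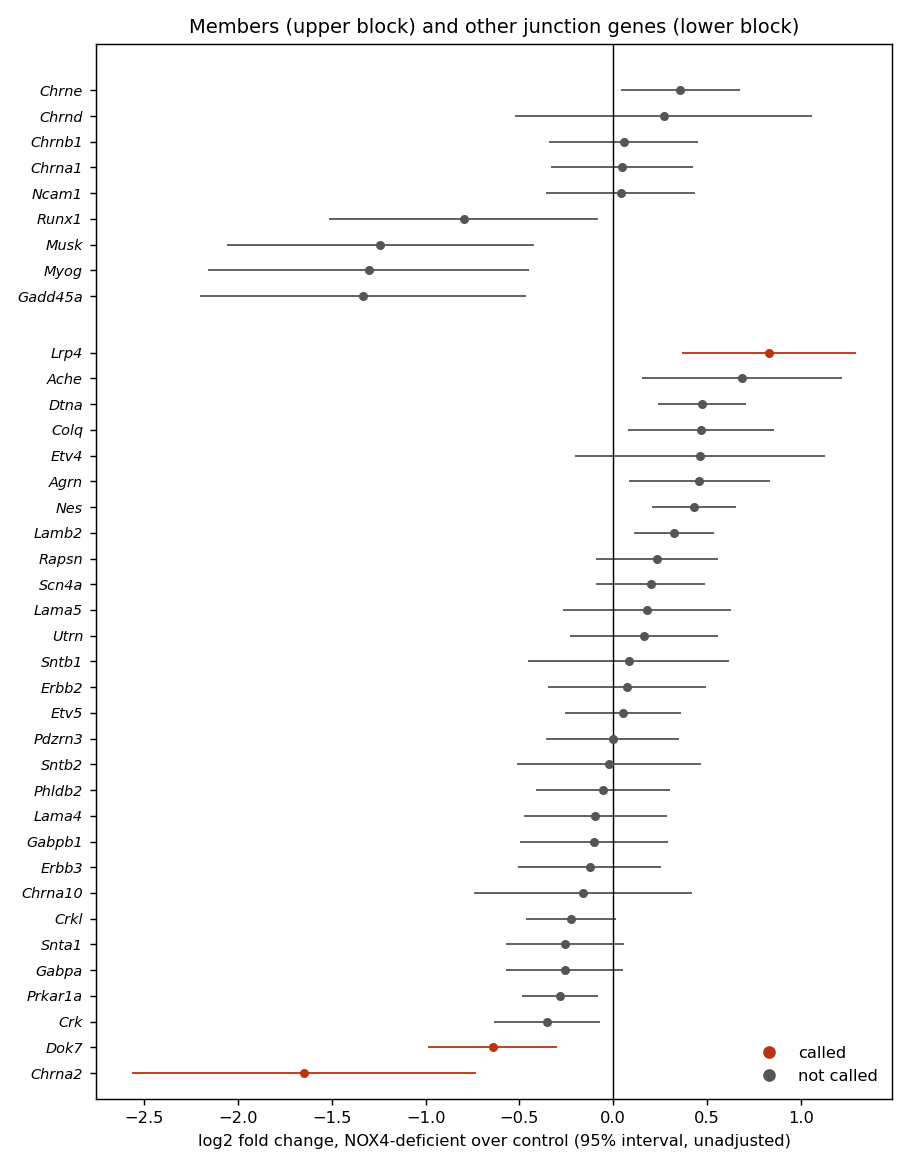
Log2 fold change (NOX4-deficient over control, x axis) with its unadjusted 95% interval for the members and for the other junction genes that were tested. Dok7 and Chrna2 (lower) and Lrp4 (higher) are called, the members are not, and the remaining genes lie on both sides of 0.

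Of 29 other genes known to respond to denervation, 26 were tested and 9 were called (6 lower and 3 higher, beside 3.48% and 2.68% of all rows), with 17 negative and 9 positive log2 fold changes and a median of -0.11. The list was not sorted by the direction in which each gene responds to denervation, so these signs are not read against that state. A pair of histone deacetylase genes went opposite ways. *Hdac4*, which links denervation to myogenin, fell from 81.3, 95.2, 75.6 and 72.9 CPM in control to 31.3, 48.1, 35.3 and 46.6 CPM in NOX4-deficient replicates 1 to 4 (log2 fold change -1.01, SE 0.15, edgeR adjusted p = 0.00203). *Hdac9*, another class II deacetylase, rose from 1.80, 2.88, 2.78 and 2.65 CPM to 9.14, 10.7, 8.78 and 12.1 CPM (log2 fold change 2.00, SE 0.19, edgeR adjusted p = 1.08e-04). In each gene the groups lay far apart.

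*Myf6*, a myogenic factor related to myogenin, fell from 211, 134, 143 and 270 CPM in control replicates 1 to 4 to 79.7, 86.7, 86.6 and 85.6 CPM (log2 fold change -1.16, SE 0.19, edgeR adjusted p = 0.00521), and control replicates 1 and 4 were the high ones here too. The related *Myod1* had a log2 fold change of -0.56 and was not called (edgeR adjusted p = 0.244). *Trim63* and *Fbxo32*, the ubiquitin ligases of muscle atrophy, fell by 2.18 and 1.62 on the log2 scale. *Cdkn1a*, a cell cycle inhibitor, and *Ampd3*, an AMP deaminase of atrophying fibers, fell by 2.03 and 0.83 on the log2 scale. *Fbxo32*, *Cdkn1a* and *Ampd3* were named after their values were seen, and the call of *Ampd3* was lost without control replicate 1 or 4 or NOX4-deficient replicate 1 (edgeR adjusted p up to 0.0597). *Igfbp5*, a secreted binding protein for insulin-like growth factors, rose from 206, 244, 271 and 226 CPM to 441, 887, 599 and 638 CPM (log2 fold change 1.44, edgeR adjusted p = 9.84e-04). *Myh3*, the embryonic myosin of regenerating and denervated fibers, rose from 2.58, 2.01, 1.66 and 1.61 CPM to 5.78, 5.31, 3.21 and 4.81 CPM (log2 fold change 1.28, edgeR adjusted p = 0.00807). The called genes of the list thus included the atrophy ligases, *Hdac4* and *Myf6* among those that fell and *Myh3*, *Igfbp5* and *Hdac9* among those that rose.

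**Figure D4:**
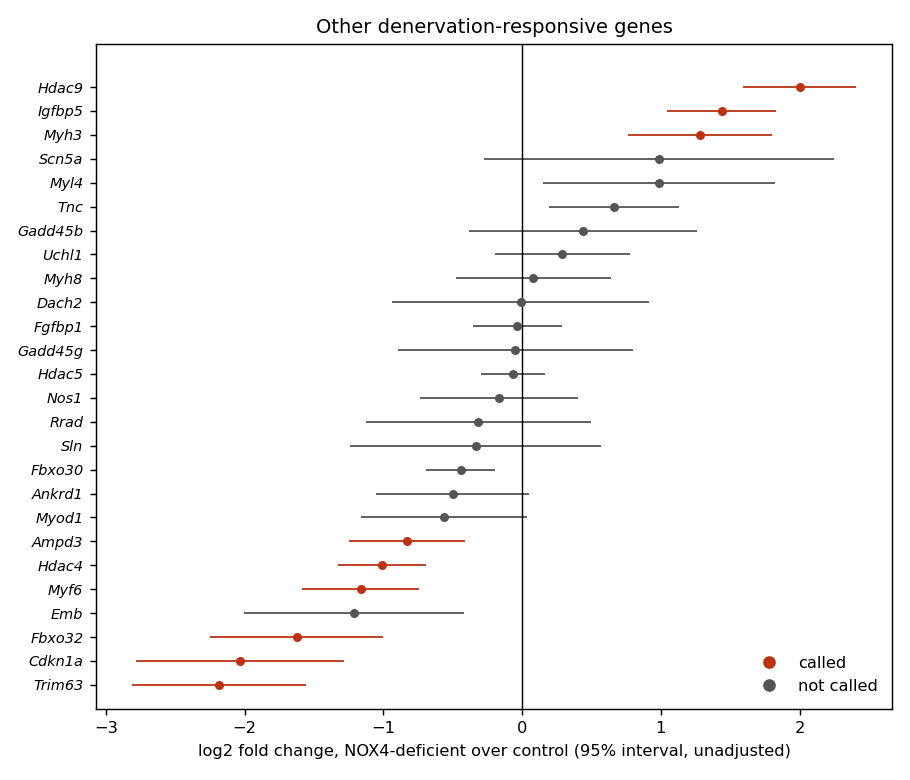
Log2 fold change (NOX4-deficient over control, x axis) with its unadjusted 95% interval for the 26 denervation-responsive genes tested outside the members. Hdac9, Igfbp5 and Myh3 are called higher, and Ampd3, Hdac4, Myf6, Fbxo32, Cdkn1a and Trim63 are called lower.

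A list of 6 genes around *Gadd45a* and *Runx1* had 5 genes tested and none called, with 2 negative and 3 positive log2 fold changes and a median of 0.06. *Atf4*, a factor that induces *Gadd45a* in immobilized muscle, was at 237, 207, 217 and 287 CPM in control and 176, 151, 196 and 150 CPM in NOX4-deficient replicates 1 to 4 without overlap. Its log2 fold change of -0.49 lay just under the minimum (edgeR adjusted p = 0.0354), and it was called without control replicate 2 (-0.56, edgeR adjusted p = 0.0444) or NOX4-deficient replicate 3 (-0.56, edgeR adjusted p = 0.0393). Without any other single library the edgeR adjusted p was above 0.05, from 0.0635 to 0.0985. *Ccng1*, a target of p53, had a log2 fold change of 0.16 (edgeR adjusted p = 0.464).

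None of the other marker lists had a called gene, and none had a marker at 0. The 8 slow fiber markers all had positive log2 fold changes (median 0.64), with a summed level of 295 to 641 CPM in control and 386 to 1157 CPM in NOX4-deficient muscle. Of the 10 fibroblast and tendon markers 8 were positive (median 0.49, 480 to 812 and 519 to 833 CPM), of the 6 adipocyte markers 4 (median 0.59, 162 to 297 and 160 to 209 CPM), of the 5 endothelial markers 2 (median -0.03, 188 to 235 and 204 to 220 CPM) and of the 10 fiber markers 9 (median 0.09). Their part in the levels of the 10 genes was not tested.

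The adjusted p of *Musk*, *Myog* and *Gadd45a* lay near the threshold, so the choice of test decided their calls. DESeq2 in R gave adjusted p = 0.0366 for *Musk*, 0.00470 for *Myog* and 0.0258 for *Gadd45a*, against 0.073, 0.069 and 0.070 in edgeR. The log2 fold changes hardly moved between these tools (-1.24, -1.31 and -1.34 in DESeq2). Over all alternatives the adjusted p ran from 3.15e-04 to 0.221 for *Musk*, 0.00470 to 0.209 for *Myog* and 0.0258 to 0.205 for *Gadd45a*, highest in edgeR without a filter on low counts. *Chrna1*, *Chrnb1*, *Chrnd*, *Chrne*, *Ncam1* and *Runx1* were called under no setting tried.

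**Figure D5:**
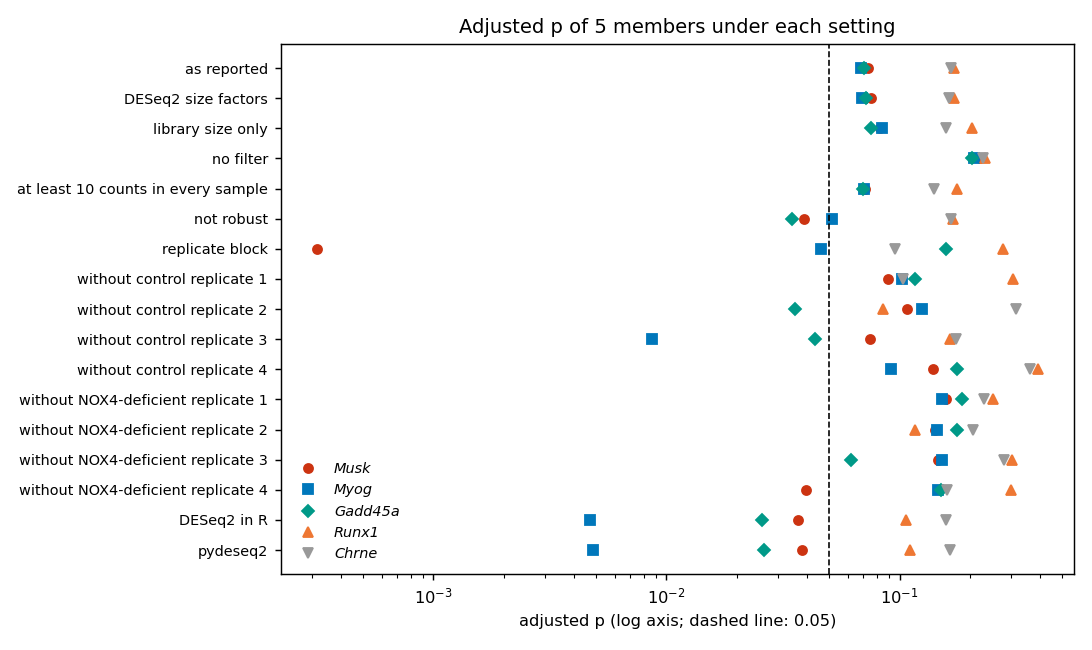
Adjusted p (log axis) of Musk, Myog, Gadd45a, Runx1 and Chrne under the reported setting and each alternative (rows), with the threshold of 0.05 as a line. Musk, Myog and Gadd45a cross the line with DESeq2 and pydeseq2 and with single libraries left out, and Runx1 and Chrne stay to its right.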

How the data were processed

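Gastrocnemius RNA from 4 control and 4 NOX4-deficient mice was analyzed. The authors deposited counts of reads per gene from unstranded poly(A) libraries, without normalization. The submitters' processing notes name STAR and GRCm39, and the annotation is not given in the sources used here. All 8 count columns matched a sample by name. The 10 members, the gene lists and the tests were chosen with earlier results of these data known.

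Counts were tested in R 4.3.3 with edgeR 4.0.16 (TMM, filterByExpr, robust glmQLFit, glmQLFTest, genotype as only term), with Benjamini-Hochberg adjustment over 12725 rows. CPM was computed from the deposited counts. Exact two-sided permutation tests were run on CPM for the 9 members tested, *Chrng* and *Nox4*, and their p-values were not adjusted. Exon lengths came from GENCODE M21 on GRCm38, matched by symbol for all 151 genes of the lists, because no annotation of the files' build was used. The fit was tested on simulated counts. Alternatives were DESeq2 size factors, library size only, no filter, at least 10 counts per sample, a fit that was not robust, no minimum fold change, DESeq2 1.42.0, pydeseq2 0.5.4, the replicate number as a block, and each library left out. Named were all members, *Nox4*, up to 6 called genes per list by smallest p, and otherwise the 2 with most counts, and the 3 rows most like *Myog* and *Gadd45a* over the libraries. *Myod1*, *Rapsn* and the genes said to be named after their values were seen were added outside this rule. For marker lists without a call the report gives counts, medians and sums, and single markers are named only for a turned sign or an outlying library.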

Additional observations from a re-analysis of the deposited data

Results flagged for a closer look

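In 9 of 100 groups of 4 libraries tested, a library's gap to its nearest neighbor took up more of the group's range than Dixon's critical value for 4 samples allows, where chance gives about 1 in 20, or 5 groups. In NOX4-deficient replicate 1, *Nox4* was lowest (1.74 CPM against 2.17 to 2.21 CPM, gap 0.918 of the range), as was *Myf6* (79.7 against 85.6 to 86.7 CPM, gap 0.847), although both ranges were narrow. Control replicate 4 was highest for *Mbp*, a myelin gene (31.5 against 21.6 to 23.0 CPM, gap 0.858), for *Fbxo32* (1694 against 737 to 860 CPM, gap 0.871) and for *Cdkn1a* (175 against 66.0 to 80.2 CPM, gap 0.869). *Fbxo32* and *Cdkn1a* were still called without that library. *Pecam1*, an endothelial gene, was lowest in NOX4-deficient replicate 2 (57.0 against 74.5 to 75.8 CPM, gap 0.928). *Cfd*, an adipocyte gene, was highest in control replicate 1 (41.2 against 7.22 to 11.6 CPM, gap 0.870). *Ache* was highest in NOX4-deficient replicate 3 (47.5 against 30.0 to 32.0 CPM, gap 0.889). *Prkar1a* was lowest in control replicate 3 (178 against 193 to 195 CPM, gap 0.876). No group of a member was among these.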

How the results depend on the processing

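The count of members called was 0 as reported, 2 with a fit that was not robust, 2 with the replicate number as a block, and 3 with DESeq2 in R and with pydeseq2. It ran from 0 to 2 with single libraries left out. The block called *Musk* (edgeR adjusted p = 3.15e-04) and *Myog* (0.0459), but the numbers were not taken as pairs: same-numbered deviations correlated at 0.223, 0.147, 0.0410 and 0.0412, and control replicates 1 to 4 correlated best with NOX4-deficient replicates 1, 4, 1 and 2, which follows the split of replicates 1 and 3 from 2 and 4. Over all genes, 784 rows were called as reported, and the fits that left out single libraries called 499 to 712 rows, fewest without control replicate 4. Of the other junction genes, 3 were called as reported, 5 with pydeseq2 and 0 to 3 with single libraries left out. *Cdkn1a* was not called with the block (edgeR adjusted p = 0.0718). Signs turned only in genes that were not called and only with single libraries left out: the log2 fold change ran from -0.042 to 0.19 for *Chrna1*, -0.081 to 0.23 for *Chrnb1*, -0.063 to 0.14 for *Ncam1*, -0.16 to 0.24 for *Pmp22*, -0.24 to 0.028 for *Cd34*, -0.13 to 0.032 for *Cdh15*, -0.23 to 0.0020 for *Fabp4* and -0.96 to 0.15 for *Cfd*. Of 784 values of genes under alternatives, 723 kept direction and call, 24 gained a call, 21 lost one and 16 turned sign. The cause was not tested. Depth limits *Chrng* and *Chrnd*, with 17 and 215 counts over all libraries.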

Other observations

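The rows most like *Myog* over the 8 libraries were *Pamr1* (Pearson r = 0.967 of log2 CPM), *Anxa3* (0.956) and *Srsf3* (0.951), and those most like *Gadd45a* were *Tfg* (0.980), *Ptpn2* (0.971) and *Arf6* (0.963). These values are a description over 8 libraries, 4 of each genotype, so that a difference between genotypes common to both rows raises r. *Myog* and *Gadd45a* themselves had r = 0.749. *Srsf3*, a splicing factor gene, was at 77.8, 66.0, 60.8 and 68.9 CPM in control and 59.6, 59.6, 58.2 and 57.4 CPM in NOX4-deficient replicates 1 to 4. The order of the control mice differed from that of *Myog*, whose second highest control was replicate 2, and in both genes control replicate 1 was highest.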
